A study of Homo sapiens with 8 samples.

Results

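The series holds 2 experiments on KBM7 cells, and each experiment had its own wild-type (WT) cultures. Those WT cultures were set against each other here: the TNF-alpha experiment, with 1 unstimulated array and 1 array after TNF-alpha, against the IFN-gamma experiment, with 1 unstimulated array and 1 array after IFN-gamma. They are 4 of the series' 8 arrays. Of 18132 genes with a probe set of their own, 11529 reached a log2 intensity of 6 on at least 1 of the 8 arrays, and 290 of these were left out because either cytokine changed them at least 1.5-fold against its own control. The other 11239 genes are the ones compared. The question was how far cells of the same line and the same genotype differed between the experiments in culture state, metabolism and stress programmes.

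KBM7 is a chronic myeloid leukaemia line with a near-haploid karyotype, in which a single gene-trap insertion can disable a gene. TNF-experiment WT cells were unstimulated or had received TNF-alpha at 10 ng/ml for 6 hours. IFN-experiment WT cells were unstimulated or had received IFN-gamma at 100 ng/ml for 6 hours. The 4 remaining arrays came from a TNFRSF1A gene-trap mutant, handled with TNF-alpha as in the first experiment, and from a JAK2 gene-trap mutant, handled with IFN-gamma as in the second. All cells grew in IMDM with 10% fetal calf serum and were in log phase, per the labels. The labels give 1 sample per condition, so the unstimulated and the stimulated array of an experiment served as its 2 replicates, and nothing in the labels says that they came from separate cultures. A p-value here measures only the spread between these arrays, and the 1.5-fold exclusion itself limits that spread.

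Wild-type cultures of a single line can differ between experiments through passage, density, medium and serum. Ligands of the aryl hydrocarbon receptor (AHR) in medium and serum switch on xenobiotic-metabolising genes such as CYP1A1. Low oxygen, or inhibition of the prolyl hydroxylases that sense it, stabilises hypoxia-inducible factors, which raise glycolytic and angiogenic genes. Sterol shortage releases SREBP2, which raises cholesterol synthesis, and unfolded cytosolic protein activates HSF1, which raises chaperones.

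The deposited values were read as log2 intensity, and a difference is always TNF-experiment WT minus IFN-experiment WT, as the difference of pair means. Array medians ran from 63.9 to 66.9 on the linear scale. Over all probe sets the 2 arrays of a WT pair correlated at 0.997 and 0.996, while WT arrays of different experiments correlated at 0.990 to 0.991. The 3' to 5' ratio of GAPDH probe sets, a reading of RNA integrity and labelling, was 1.09 and 1.14 in TNF-experiment WT, against 1.21 and 1.20 in IFN-experiment WT. For actin it was 3.27 and 4.81 in TNF-experiment WT, against 4.41 and 4.81 in IFN-experiment WT. The GAPDH ratios do not overlap and its part in the results below was not tested. The trapped genes fitted the labels: TNFRSF1A read 6.56 and 6.55 in its mutant, against 9.23 to 9.72 in the 4 WT arrays, and JAK2 read 5.08 and 5.32 in its mutant, within the background range, against 6.14 to 6.81 in WT. The upper quartile of the background control probe sets, 5.76 to 6.04 by array, was taken as the top of that range.

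The cultures differed broadly but mostly by little. By limma with Benjamini-Hochberg adjustment over the 11529 genes, 1440 (12.5%) were higher and 1970 (17.1%) were lower in TNF-experiment WT at an adjusted p under 0.05, and among the 11239 genes compared the counts were 1426 and 1956. The median absolute difference of those genes was 0.45, well short of 2-fold. A gene was called when it also differed at least 2-fold. This gave 83 higher (0.720%) and 80 lower (0.694%) of the 11529, and 71 higher and 69 lower of the 11239. The adjusted p of the 140 called genes ran from 0.0038 to 0.0165. By fold alone the counts were the same 71 and 69, so the fold threshold and not the test set them. The calls rest on both arrays of the TNF-alpha experiment: with its unstimulated or its stimulated array left out, limma called 0 genes, at smallest adjusted p-values of 0.0566 and 0.0503. By fold alone, with no test, 79 genes were at least 2-fold higher and 58 lower without the unstimulated array. Without the stimulated array the counts were 82 and 105.

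The difference was also taken before and after the cytokines. The unstimulated difference and the stimulated difference share no array, and across the 11239 genes they correlated at r = 0.84, a description over genes of 4 arrays that also passed a common normalization. Of the 71 genes called higher, 50 were at least 2-fold higher in both, and of the 69 called lower, 45 were at least 2-fold lower in both. These counts are a description only, since the genes were chosen on the mean of the 2 differences and the exclusion limits how far those can part. The SD over genes was 0.34 for the pair-mean difference, against 0.15 for either cytokine response, where genes with a large response had been left out. At the 2-fold edge stood GPR155 at 1.01 inside and DERL3 at 0.998 outside on the higher side, and CCND3 at -1.01 inside and TIMM8B at -0.997 outside on the lower side. At the exclusion edge, GDAP1 was kept with a cytokine difference of 0.57 and TFEC was left out with 0.59.

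**Figure D1:**
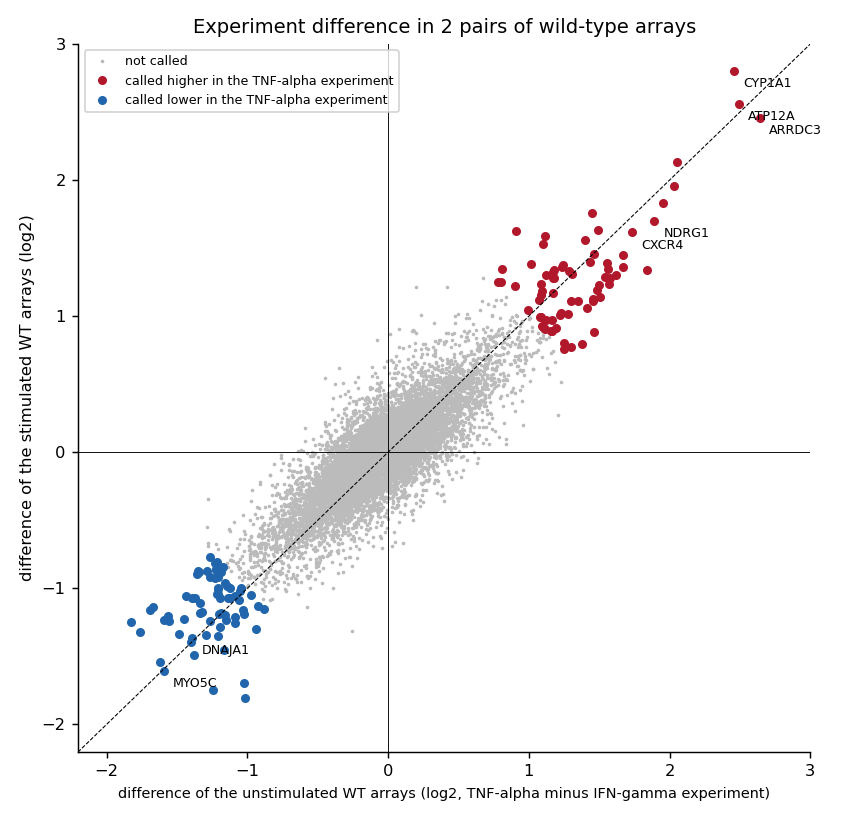
Each point is 1 of the 11239 genes: the difference between the unstimulated WT arrays on the horizontal axis and between the stimulated WT arrays on the vertical axis, both in log2 as TNF-alpha minus IFN-gamma experiment, with the line of equality dashed. The 71 genes called higher (red) and the 69 called lower (blue) lie near that line, as the exclusion of cytokine-changed genes requires, and r over all points is 0.84.

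CYP1A1, a gene of the aryl hydrocarbon receptor, had the largest difference on the higher side, and 2 more AHR targets were called. This cytochrome P450, which oxidises polycyclic aromatic compounds, read 10.28 (unstimulated) and 10.70 (TNF-alpha) in TNF-experiment WT, against 7.83 (unstimulated) and 7.90 (IFN-gamma) in IFN-experiment WT. It was 6.18-fold higher, a log2 difference of 2.63 ± 0.15 (SE, n = 2 each, limma adjusted p = 0.0072), and its 2 probe sets gave 2.11 and 2.63. TIPARP, a mono-ADP-ribosyltransferase that represses AHR, read 11.36 and 11.11 in TNF-experiment WT, against 9.69 and 9.75 in IFN-experiment WT, a difference of 1.52 ± 0.10 (limma adjusted p = 0.0072). CYP1B1, a related cytochrome P450, read 11.50 and 11.25 in TNF-experiment WT, against 9.96 on both arrays of IFN-experiment WT, a difference of 1.41 ± 0.10, though its 5 probe sets ranged from 0.28 to 1.41. The pairs do not overlap in these genes, as in all 140 called genes, which the 1.5-fold exclusion and the 2-fold call together require. Of the 6 AHR targets compared, 3 were called higher and 0 lower, beside 0.720% of all genes. The other 3 did not pass the test: the AHR repressor AHRR differed by -0.26, the quinone reductase NQO1 by -0.25 and CYP1A2 by -0.04. The receptor itself, AHR, differed by 0.35 and its partner ARNT by 0.42, both past the adjusted p and short of 2-fold. Probe sets past the level filter disagreed in 2 of these genes: the 3 of ARNT ranged from 0.19 to 1.24, and the 2 of AHRR gave -0.26 and 0.45. Of the chaperones that hold the receptor in the cytosol, HSP90AA1 was lower at -0.95, while PTGES3 at -0.15 and HSP90AB1 at -0.11 did not pass. The target list's median was 0.69, beside -0.02 over all genes compared.

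Promoters are shown for called genes of the lists of AHR targets, arrestin genes and cholesterol synthesis. From each list they are those with the largest differences that the table of RefSeq promoters (build GRCh38.p14) holds. Larger differences outside these lists are not shown. Each promoter runs from 250 bases before the start site to 50 after it, on the gene's strand. NDRG1 is named only. Capitals mark the AHR core GCGTG, or CACGC on the other strand, in the first pair, and the CCAAT box, or ATTGG on the other strand, in the second pair. CYP1A1 lies at chr15:74725479-74725778 on the minus strand, and TIPARP, in the first of 3 entries, at chr3:156674340-156674639 on the plus strand. ARRDC3, in the first of 2 entries, lies at chr5:91383268-91383567 on the minus strand, and MSMO1 at chr4:165327419-165327718 on the plus strand.
CYP1A1: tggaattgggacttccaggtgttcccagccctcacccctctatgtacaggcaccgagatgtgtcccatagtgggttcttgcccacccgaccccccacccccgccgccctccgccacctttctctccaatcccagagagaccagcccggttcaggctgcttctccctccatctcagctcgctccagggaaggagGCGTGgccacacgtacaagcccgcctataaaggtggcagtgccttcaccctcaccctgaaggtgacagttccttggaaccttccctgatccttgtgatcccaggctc
TIPARP: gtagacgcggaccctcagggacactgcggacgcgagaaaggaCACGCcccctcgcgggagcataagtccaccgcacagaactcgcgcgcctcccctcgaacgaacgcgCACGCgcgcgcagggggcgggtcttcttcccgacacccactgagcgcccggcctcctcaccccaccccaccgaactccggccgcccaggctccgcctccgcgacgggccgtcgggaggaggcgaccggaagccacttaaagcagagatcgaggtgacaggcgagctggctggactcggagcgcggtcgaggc
ARRDC3: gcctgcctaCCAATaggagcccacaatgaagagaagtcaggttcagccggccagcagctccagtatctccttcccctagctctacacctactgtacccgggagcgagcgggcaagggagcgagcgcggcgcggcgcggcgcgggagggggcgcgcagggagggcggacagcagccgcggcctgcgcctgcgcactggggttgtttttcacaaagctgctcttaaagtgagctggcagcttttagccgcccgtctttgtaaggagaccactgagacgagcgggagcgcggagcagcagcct
MSMO1: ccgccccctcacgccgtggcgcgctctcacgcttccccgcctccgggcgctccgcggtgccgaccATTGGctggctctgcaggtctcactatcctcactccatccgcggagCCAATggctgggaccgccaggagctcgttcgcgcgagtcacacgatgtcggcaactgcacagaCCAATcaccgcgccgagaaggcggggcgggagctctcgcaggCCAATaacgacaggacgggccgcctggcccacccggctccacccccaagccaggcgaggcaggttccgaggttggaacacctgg

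The CYP1A1 window held 1 AHR core, starting at -57 from the start site, and the TIPARP window 2, at -208 and -142. The MSMO1 window also held 2 AHR cores, left unmarked, and the ARRDC3 window held 0. That core is short and common: 36.3% of 27305 promoters of this length held it, and 50.6% of the 9237 among the genes compared. Among the called genes it was in 24 of 54 promoters of higher genes (44.4%) and 27 of 56 of lower genes (48.2%). The MSMO1 window held 4 CCAAT boxes and the ARRDC3 window 1, where 36.8% of the compared genes' promoters held at least 1. In the CYP1A1 window there were 2 CCAAT boxes, left unmarked, and in the TIPARP window 0. The sterol response element TCACNCCAC, or GTGGNGTGA on the other strand, was in 1.08% of the compared genes' promoters. It was in 3 of 54 promoters of higher genes and in 1 of 56 of lower genes. The MSMO1 window had no match and the TIPARP window had 1. Among called genes, 12 of 54 higher and 20 of 56 lower had a CCAAT box. The hypoxia-inducible factor core ACGTG, searched on both strands, was in 21 of 54 promoters of higher genes (38.9%) and 15 of 56 of lower genes (26.8%), against 26.6% of those compared; its letters overlap the E-box CACGTG, which was in 4 of 54 and 7 of 56. These are matches of letters, given without a test.

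**Figure D2:**
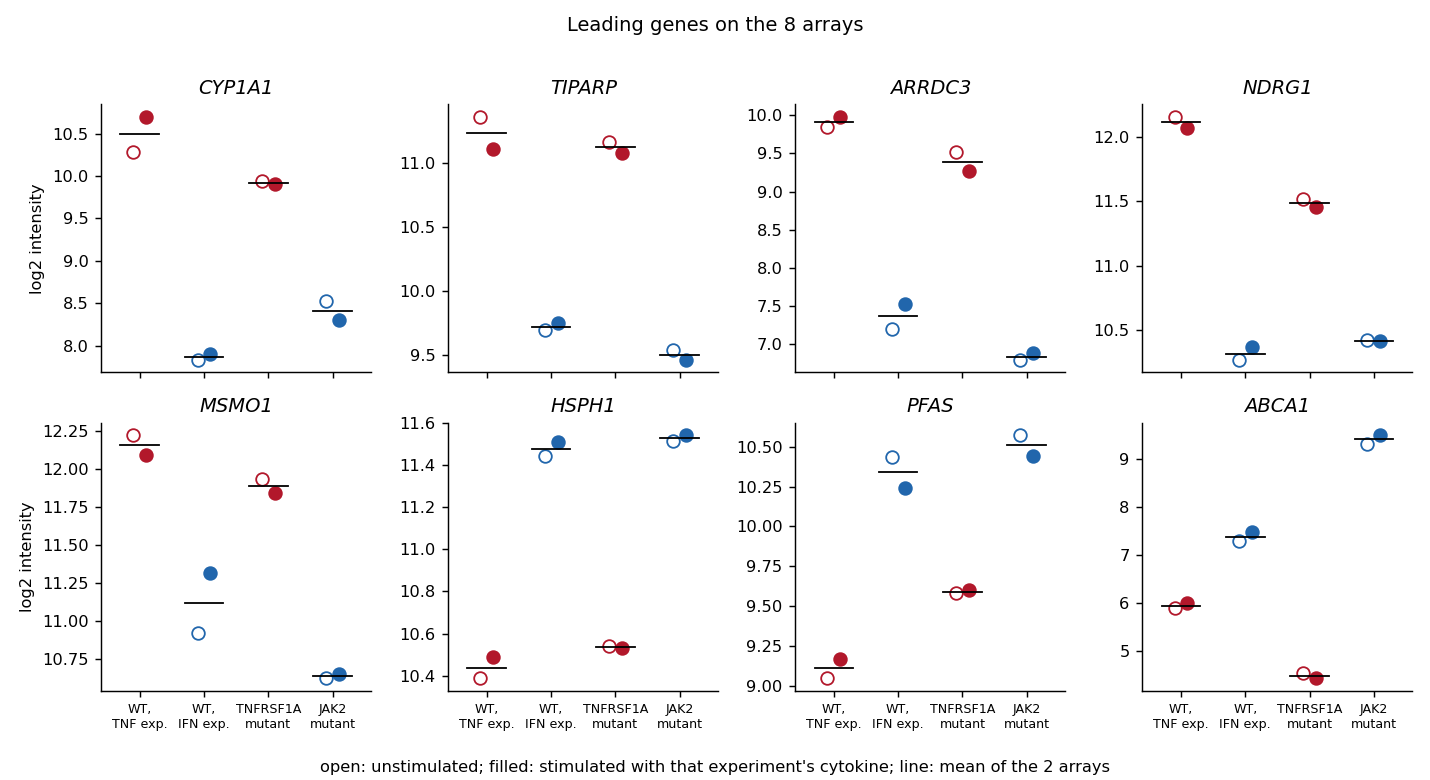
Log2 intensity of 8 genes on all 8 arrays, with open points unstimulated, filled points stimulated and a line at each pair's mean; each panel has its own vertical scale, which does not start at 0. In CYP1A1, TIPARP, ARRDC3, NDRG1 and MSMO1 both arrays of TNF-experiment WT lie above both of IFN-experiment WT, and in HSPH1, PFAS and ABCA1 they lie below.

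ARRDC3, an alpha-arrestin that adapts membrane receptors to ubiquitin ligases, came next after CYP1A1. It read 9.84 and 9.98 in TNF-experiment WT, against 7.20 and 7.53 in IFN-experiment WT. That is 5.85-fold, a difference of 2.55 ± 0.13 (limma adjusted p = 0.0072), and its 3 probe sets ranged from 1.44 to 2.55. ARRDC4 and TXNIP, alpha-arrestins that respond to glucose through MondoA, moved the same way without reaching 2-fold. ARRDC4 differed by 0.80 and TXNIP, an inhibitor of thioredoxin and of glucose uptake, by 0.72, both past the adjusted p. ARRDC1, of the same list, differed by -0.07 and did not pass. MLXIP, which encodes MondoA, differed by -0.49. ARRDC3 was the only called gene of the 7 in this list that were compared, beside 0.720% of all genes called higher.

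Hypoxia-inducible genes were higher as a group. NDRG1, a stress gene strongly induced by low oxygen, read 12.16 and 12.07 in TNF-experiment WT, against 10.27 and 10.37 in IFN-experiment WT. The difference was 1.80 ± 0.08, or 3.47-fold (limma adjusted p = 0.0072), with its 5 probe sets between 0.94 and 1.80. P4HA1, a collagen prolyl hydroxylase, differed by 1.03 ± 0.09, and VEGFA, the angiogenic growth factor, by 1.01 ± 0.10, the 10 VEGFA probe sets all above 0 and the lowest at 0.20. Without the unstimulated IFN-experiment array both calls were lost, P4HA1 at 0.94 and VEGFA at 0.89, as was that of VEGFA at 0.93 with the mean of its probe sets. Of the 18 hypoxia-inducible genes compared, 3 were called higher and 0 lower, beside 0.720% of all genes. At the adjusted p alone 13 of the 18 were higher and 0 lower, beside 12.5% of all genes. MXI1, an antagonist of MYC, stood at 0.99 just under the threshold, with the oxidoreductase ERO1A at 0.92, FAM162A at 0.90 and the repressor BHLHE40 at 0.86. The prolyl hydroxylase EGLN1 differed by -0.05 and the glucose transporter SLC2A1 by -0.05. The list's median was 0.54. It was 0.73 between the unstimulated arrays and 0.37 between the stimulated ones. ADM, the vasodilator adrenomedullin, differed by 1.23 but had been left out because IFN-gamma changed it, by 0.67.

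Only some glycolytic genes were part of this. ENO2, the neuronal enolase, read 9.13 and 9.11 in TNF-experiment WT, against 7.70 and 7.72 in IFN-experiment WT, a difference of 1.42 ± 0.06 (limma adjusted p = 0.0072). GPI, glucose-6-phosphate isomerase, differed by 1.31 ± 0.06 and ALDOC, aldolase C, by 1.07 ± 0.08. The 3 were called higher among 17 compared, and 0 were called lower, beside 0.720% and 0.694% of all genes. At the adjusted p alone 6 of the 17 were higher, beside 12.5% of all genes, and 1 was lower, beside 17.1%. Besides the called genes, HK2, a hexokinase, and ALDOA, aldolase A, were higher, both at 0.34, and PFKL, the liver phosphofructokinase, at 0.32. LDHA at -0.03, PGK1 at 0.11, GAPDH at 0.20 and PKM at -0.19 did not pass the test. The muscle phosphofructokinase PFKM was lower, at -0.34 (limma adjusted p = 0.0204). The median of the list was 0.11. The genes of oxidative phosphorylation had a median of -0.19, with 0 of 13 called and 3 lower at the adjusted p alone, beside 17.1% of all genes, ATP5MC1 farthest at -0.71.

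**Figure D3:**
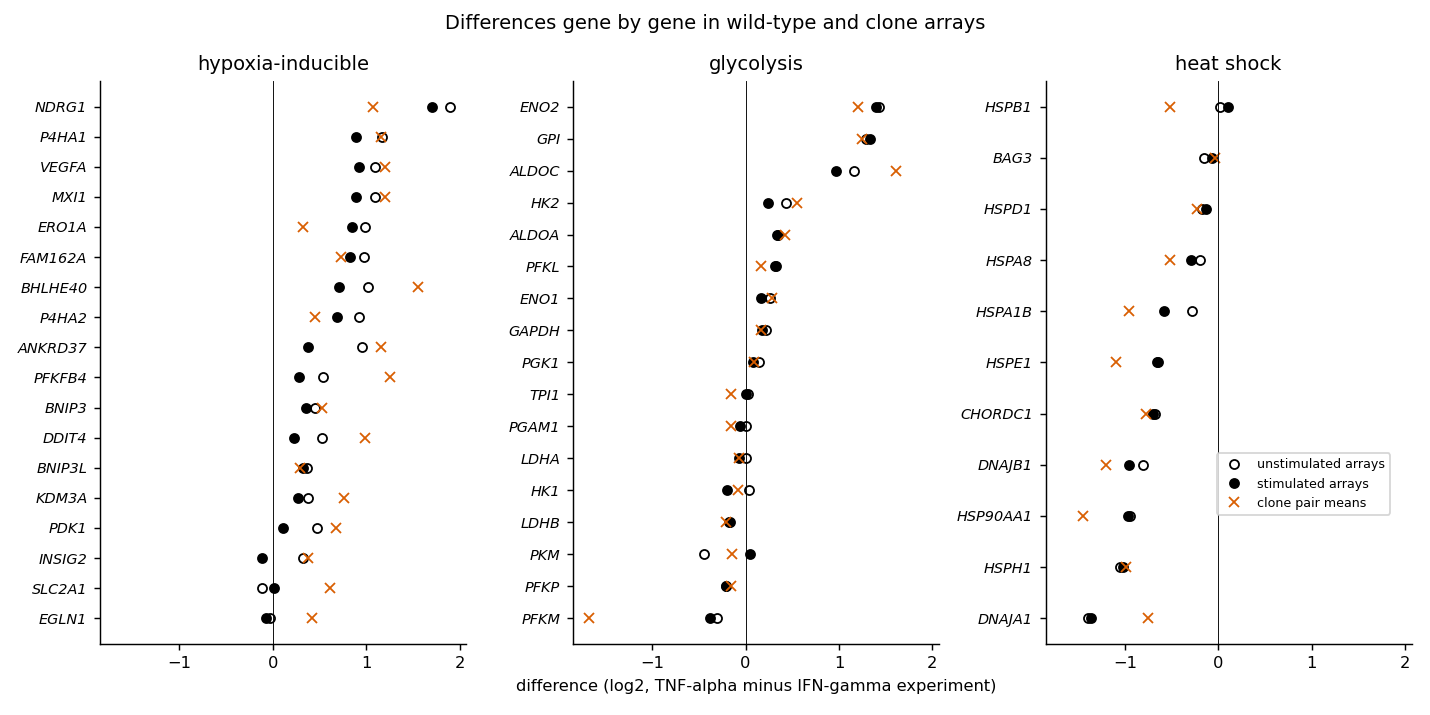
Log2 differences, TNF-alpha minus IFN-gamma experiment, gene by gene for hypoxia-inducible, glycolytic and heat shock genes; open points compare the unstimulated WT arrays, filled points the stimulated WT arrays and crosses the clone pair means (TNFRSF1A mutant minus JAK2 mutant). NDRG1, ENO2, GPI and ALDOC lie near or above 1 in both WT pairs, and DNAJA1 and HSPH1 at or below -1.

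Cholesterol synthesis genes were mostly higher by small amounts. MSMO1, the methylsterol monooxygenase that removes C4 methyl groups from sterol intermediates, read 12.22 and 12.09 in TNF-experiment WT, against 10.92 and 11.32 in IFN-experiment WT. The difference was 1.04 ± 0.15 (limma adjusted p = 0.0117), its 4 probe sets gave 1.04 to 1.34, and the unstimulated IFN-experiment array was the lowest. Without that array the difference was 0.84 and the call was lost; between the stimulated arrays alone it was 0.77. MSMO1 was the only called gene of 17, beside 0.720% of all genes called higher. Of the 17, 15 were above 0, as were 5237 of the 11239 genes compared. At the adjusted p 7 were higher, beside 12.5% of all genes, and 1, PMVK at -0.46, was lower. HMGCS1, which makes HMG-CoA, and DHCR7, the last reductase of the pathway, both differed by 0.78, the sterol transporter STARD4 by 0.74 (limma adjusted p = 0.06, past no threshold) and the epoxidase SQLE by 0.61. The median was 0.33. Fatty acid synthesis did not share the direction: 0 of 11 were called, 6 were lower at the adjusted p and 0 higher, beside 17.1% and 12.5% of all genes, and ACACA, acetyl-CoA carboxylase, differed by -0.69.
ABCA1, which exports cholesterol from cells, was called lower. It read 5.90 and 5.99 in TNF-experiment WT, close to the background range, against 7.28 and 7.48 in IFN-experiment WT, a difference of -1.44 ± 0.10 (limma adjusted p = 0.0072) from the only one of its probe sets that reached the level filter.

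Heat shock genes were the clearest group on the lower side. HSPH1, the HSP110 nucleotide exchange factor, read 10.39 and 10.49 in TNF-experiment WT, against 11.44 and 11.51 in IFN-experiment WT, a difference of -1.04 ± 0.07 (limma adjusted p = 0.0072), and its 8 probe sets lay between -1.23 and -1.04. DNAJA1, a cochaperone of HSP70, read 10.58 and 11.06 in TNF-experiment WT, against 11.98 and 12.42 in IFN-experiment WT, a difference of -1.38 ± 0.22 (limma adjusted p = 0.0143). The stimulated array was the higher one in each pair. Of 11 heat shock genes, 2 were called lower and 0 higher, beside 0.694% of all genes, and 8 were lower at the adjusted p alone, beside 17.1%. HSP90AA1 differed by -0.95, DNAJB1 by -0.88, CHORDC1 by -0.69 and the mitochondrial HSPE1 by -0.65, while HSPB1 at 0.06 and BAG3 at -0.11 did not pass. The median was -0.65.

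Growth genes were lower with them, by less. POLR1A, the large subunit of RNA polymerase I, read 7.40 and 7.34 in TNF-experiment WT, against 8.45 and 8.34 in IFN-experiment WT, a difference of -1.02 ± 0.07 (limma adjusted p = 0.0072). It was the only called gene among 17 of MYC and ribosome biogenesis, beside 0.694% of all genes called lower. Of the 17, 9 were lower and 0 higher at the adjusted p, beside 17.1% and 12.5% of all genes. The list's median was -0.28. The call of POLR1A was lost at -0.69 with the mean of its probe sets, at -0.97 without the unstimulated IFN-experiment array, and just short of 2-fold under loess. UTP20, of the small subunit processome, stood at -0.99, RRP12 at -0.73 and MYC itself at 0.16. Nucleotide synthesis genes were a list drawn up after its values were seen. Of its 16 genes 2 were called lower, beside 0.694% of all genes. These were PFAS of purine synthesis at -1.23 ± 0.10 and CTPS1, CTP synthase, at -1.22 ± 0.12. At the adjusted p 9 of the 16 were lower and 1 higher, beside 17.1% and 12.5% of all genes. With the mean of all its probe sets PFAS differed by -0.54, without x_at probe sets (those whose probes also match other transcripts) by -0.40, and CTPS1 by -0.89 with the mean, all short of the call. UMPS at -0.78 and CAD at -0.79, of pyrimidine synthesis, were lower at the adjusted p, and GMPS was higher at 0.37. In the G1/S list CCNE2, cyclin E2, was called lower at -1.03 ± 0.09, as 1 of 17 genes, beside 0.694% of all genes. PCNA stood at -0.58 and CCNE1 at -0.53. At the adjusted p 7 of the 17 were lower and 0 higher, beside 17.1% and 12.5% of all genes. That list's median was -0.19. The G2/M list had a median of 0.08 and 0 called of 17. FOXO targets, which growth factor withdrawal induces, ran the other way: BCL6 was called higher at 1.12 ± 0.14, 7 of 8 were higher at the adjusted p, beside 12.5% of all genes, among them the CDK inhibitor CDKN1B at 0.82 and CCNG2 at 0.69, and the median was 0.62. BCL6 fell short of the call at 0.81 with the mean of its probe sets and at 0.94 without the unstimulated IFN-experiment array, and CCNE2 at -0.94 without the stimulated one.

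In the lists of other stress programmes 1 gene was called. Of 25 ATF4 targets, which the integrated stress response raises, 0 were called, 11 were higher and 1 lower at the adjusted p, beside 12.5% and 17.1% of all genes, and the median was 0.29, with DDIT3 (CHOP) at 0.85, STC2 at 0.76 and asparagine synthetase ASNS at 0.75. Of 15 unfolded protein response genes, 0 were called, and 7 were higher and 1 lower at the adjusted p, beside the same shares of all genes. The median was 0.27, led by DNAJB9 at 0.58 and HERPUD1 at 0.54. Oxidative stress genes had a median of 0.06, with 0 called of 13. Of 6 glucocorticoid targets, TSC22D3 (GILZ) was called higher at 1.17 ± 0.15, PER1 stood at 0.94 and FKBP5 at -0.14. That list had 3 genes above 0 and 3 below, with a median of 0.08. Of the 11 genes compared from the list of p53 targets, which does not hold every such target, 0 were called. At the adjusted p 4 were higher and 1 lower, beside 12.5% and 17.1% of all genes. Their median was 0.45, with BBC3 at 0.98 and BAX at -0.77. Medians were 0.01 over 9 housekeeping and 0.04 over 8 ribosomal protein genes, with 0 called in either list. Markers of other cells gave no called gene: 3 of 3 epithelial and 3 of 3 fibroblast markers were in the background range on all 4 WT arrays, as were 3 of 4 T cell markers, 2 of 4 monocyte markers, 3 of 4 granulocyte markers, 3 of 4 megakaryocyte markers, 1 of 3 B cell markers and 1 of 3 erythroid markers. The summed level of the T cell markers was 10.03 to 10.15 in TNF-experiment WT, against 9.52 to 9.53 in IFN-experiment WT, and came from CD3D at 0.64. The myeloid progenitor markers were above background on all 4 arrays in 7 of 7 genes. Their sum was 13.37 to 13.89 in TNF-experiment WT, against 12.86 to 13.00 in IFN-experiment WT, led by GATA2. GATA2 read 12.34 (unstimulated) and 13.24 (TNF-alpha) in TNF-experiment WT, against 11.30 (unstimulated) and 11.29 (IFN-gamma) in IFN-experiment WT. It was left out of the comparison because TNF-alpha had changed it.

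**Figure D4:**
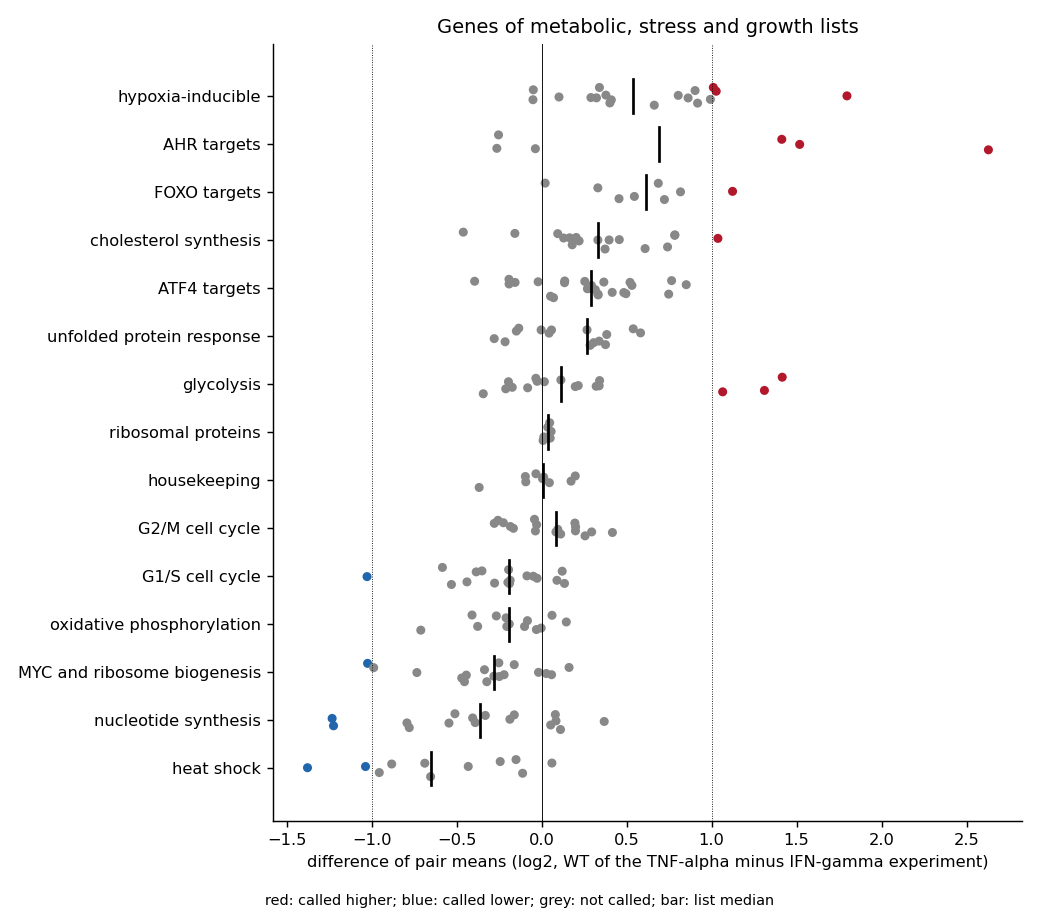
Each point is 1 gene of a list, placed by its log2 difference of pair means (WT of the TNF-alpha minus WT of the IFN-gamma experiment), red when called higher, blue when called lower and grey otherwise; black bars are list medians and dotted lines mark 2-fold. Medians run from 0.69 for AHR targets and 0.62 for FOXO targets to -0.65 for heat shock genes.

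Several of the largest differences belonged to genes in none of these lists. Each list is a selection, so a gene absent from it may still belong to its programme. ATP12A, the alpha subunit of a proton-potassium pump, read 9.01 and 8.99 in TNF-experiment WT, against 6.52 and 6.43 in IFN-experiment WT, a difference of 2.53 ± 0.07 (limma adjusted p = 0.0038). The growth factor gene FGF9 differed by 1.89 ± 0.22, the chemokine receptor gene CXCR4 by 1.67 ± 0.09, the IL-25 receptor gene IL17RB by 1.61 ± 0.10, the adhesion gene LSAMP by 1.56 ± 0.07 and the GTPase gene RAB17 by 1.56 ± 0.09. In AFDN-DT, TCP11L2 and ANKRD44 the IFN-experiment pair lay in the background range, so they were higher by at least 1.47-fold, 1.68-fold and 1.12-fold. On the lower side, the myosin gene MYO5C read 6.10 and 6.35 in TNF-experiment WT, against 7.69 and 7.95 in IFN-experiment WT, a difference of -1.60 ± 0.13 (limma adjusted p = 0.0074). FAM111B, a protease gene, differed by -1.58 ± 0.06, CHAC2, of glutathione breakdown, by -1.54 ± 0.13 and the arginine methyltransferase gene PRMT6 by -1.53 ± 0.15. MLKL, the effector of necroptosis, read 6.52 on both arrays of TNF-experiment WT, against 7.77 and 8.27 in IFN-experiment WT. The adaptor gene GAPT, the GTPase gene GIMAP6, the mitochondrial GDAP1 and the RhoGAP gene STARD13 differed by -1.42 to -1.40. With the mean of a gene's probe sets, calls were lost by STARD13 at -0.45, GDAP1 at -0.86, LSAMP at 0.76 and PRMT6 just short of 2-fold. RPL27A was lower by at least 1.77-fold from a single dim probe set, unlike the flat ribosomal protein list, and MANSC1 was in the background range in both pairs, so it has no fold.
In all, 8 of the 71 higher genes and 13 of the 69 lower genes had their dimmer pair, or in MANSC1 both pairs, in the background range. With such genes at their bound, 63 higher and 57 lower genes kept 2-fold. Of the 87 called genes with 2 or more probe sets past the level filter, 77 had every probe set on the same side of 0 and 10 did not. Fewer of the 87, 20 higher and 10 lower genes, had every such probe set past 2-fold. Median differences over all compared genes of the 23 chromosomes with at least 100 of them ran from -0.07 for chromosome 16 to 0.06 for chromosome 13.

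The 4 clone arrays entered the choice of genes through the level filter and through the mean that picked each gene's probe set. The clone comparison is therefore not fully independent of that choice. The clone arrays show how the same genes stood in the other cultures of each experiment. There, clone and experiment cannot be told apart. The 3' to 5' ratio of GAPDH was again lower in the TNF-alpha experiment. It was 1.1387 and 1.1499 in the TNFRSF1A mutant, against 1.2712 and 1.2455 in the JAK2 mutant. For actin it was 4.51 and 5.53 in the TNFRSF1A mutant, against 5.74 and 6.47 in the JAK2 mutant. The part of these ratios in the clone differences was not tested. By whole profile, the TNFRSF1A mutant arrays correlated with TNF-experiment WT at 0.993 to 0.994 and with IFN-experiment WT at 0.990 to 0.992, and the JAK2 mutant arrays with TNF-experiment WT at 0.982 and with IFN-experiment WT at 0.989 to 0.991. Between the mutants, 371 of the 11529 genes (3.22%) were at least 2-fold higher in the TNFRSF1A mutant than in the JAK2 mutant, and 206 (1.79%) were lower. Of the 71 genes called higher in WT, 40 were also at least 2-fold higher in the TNFRSF1A mutant and 66 were above 0. Of the 69 called lower, 29 were at least 2-fold lower there and 63 were below 0. Of all 11239 genes compared, 5592 were above 0 there and 5647 below. The 2-fold counts are 56.3% and 42.0% of the called genes, beside 3.22% and 1.79% of all genes tested. They were 34 and 27 genes with values in the background range set at their bound. Across all genes compared, the WT difference and the clone difference, which share no array, correlated at r = 0.57, again a description over genes.

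Most leading genes kept their side in the clones. ARRDC3 read 9.52 and 9.27 in the TNFRSF1A mutant, against 6.79 and 6.88 in the JAK2 mutant, a difference of 2.56, as in WT. CYP1A1 read 9.94 and 9.90 in the TNFRSF1A mutant, against 8.52 and 8.30 in the JAK2 mutant, a difference of 1.51 where WT had 2.63. MSMO1 read 11.93 and 11.84 in the TNFRSF1A mutant, against 10.62 and 10.65 in the JAK2 mutant. The pairs did not overlap in any of these genes. TIPARP differed by 1.63, NDRG1 by 1.07, ENO2 by 1.21 and HSPH1 by -0.99. All 18 hypoxia-inducible genes were above 0, with a median of 0.74, and all 11 heat shock genes below 0, with a median of -0.78. All 17 genes of MYC and ribosome biogenesis were below 0, with a median of -0.56. Of all 11239 genes compared, 49.8% were above 0 between the clones. ATF4 targets had a median of 0.60 between the clones, where WT had 0.29, with DDIT3 at 2.80.

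Other called genes went further or not at all. CXCR4 differed by 3.18 between the clones, and ABCA1 had a bound of -3.37, since its TNFRSF1A mutant arrays lay in the background range. HOPX and SLC6A8, picked for these values after they were seen, differed by 1.23 and 1.34 in WT; between the clones SLC6A8 differed by 2.87 and HOPX, in the background range in the JAK2 mutant, by at least 2.44. ATP12A, the third largest difference in WT, read 5.82 and 6.12 in the TNFRSF1A mutant, against 6.23 and 5.75 in the JAK2 mutant, at or near the background range in both. Its high level was thus seen in TNF-experiment WT alone among the 4 pairs. IL17RB differed by -0.28, LSAMP by -0.16, GAPT by -0.02 and STARD13 by -0.17 between the clones, all short of 2-fold. Of genes called lower in WT, FYB1 had a clone difference of 2.02, on the opposite side; that its contrasts differ was not tested. RIPOR2 had a clone difference of 1.58 with all 4 clone arrays in the background range.

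**Figure D5:**
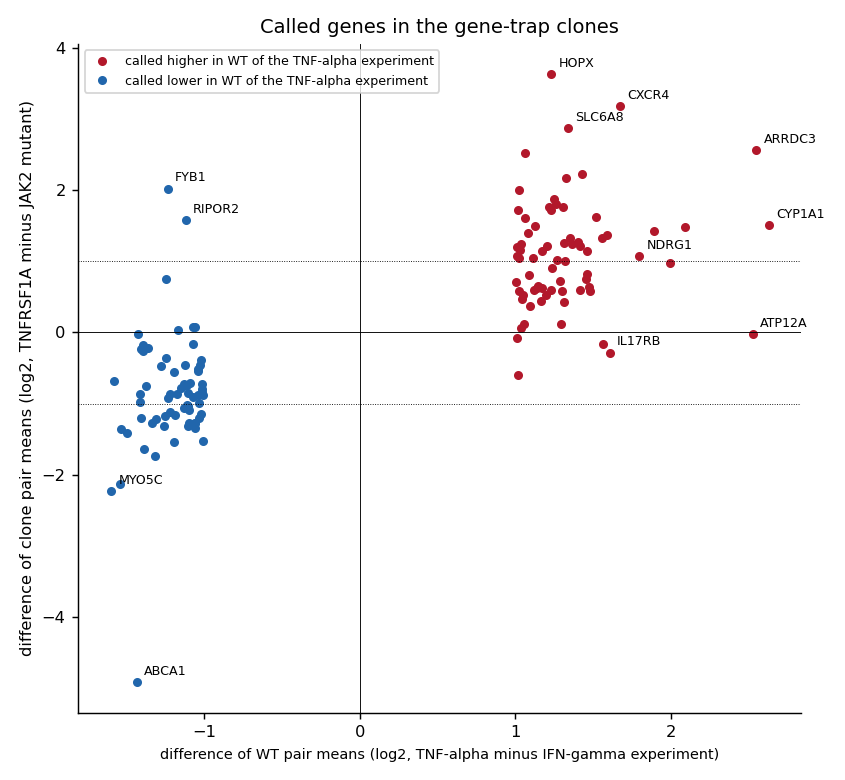
Each point is 1 of the 140 called genes, with its log2 difference between the WT pairs on the horizontal axis and its log2 difference between the clones (TNFRSF1A mutant minus JAK2 mutant, pair means as measured) on the vertical axis; dotted lines mark 2-fold between the clones. Of the 71 red genes 66 lie above 0 and of the 69 blue genes 63 lie below it, with ATP12A near 0 and FYB1 on the opposite side. Among all 11239 genes compared, 5592 had a clone difference above 0 and 5647 below.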

How the data were processed

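Biotin-labelled RNA of each sample was hybridised to a 1-colour Affymetrix PrimeView array. Deposited by the authors is 1 normalized intensity per probe set and array, on a linear scale. The submitters' processing notes name RMA and Affymetrix Expression Console (version 1.1). The linear scale was read from the values, and log2 was taken, with no pseudocount. RMA makes the arrays' distributions equal, so a shift of most genes would not be seen. Of 49395 probe sets, 44994 carried 1 gene in the platform's annotation (symbols updated through RefSeq, GRCh38.p14). A gene took its probe set with the highest mean over all arrays of the series, clone arrays included. limma 3.58.1 (R 4.3.3) fitted the experiment on the 4 WT arrays (2 residual degrees of freedom) and was tested on simulated data. Called means an adjusted p under 0.05 (Benjamini-Hochberg) and at least 2-fold. The number of arrays limits the precision.

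The genes named are CYP1A1, ARRDC3, NDRG1 and MSMO1, the 12 called genes with the largest difference each way, and, of each list described, the called genes or those farthest from 0. Edge genes, list members given because they did not pass, list regulators and genes said to be picked later fall outside that rule. The comparison, the lists and the rule were chosen with earlier results of these data known. Thresholds, level filters, normalizations, probe set rules, exclusions, model terms and single arrays were varied. Unnamed probe sets were not used in the tests.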

Additional observations from a re-analysis of the deposited data

Results flagged for a closer look

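FYB1, an adaptor gene of leukocyte signalling, stood out because its groups moved in opposite directions. It read 6.28 and 6.25 in TNF-experiment WT, against 7.47 and 7.53 in IFN-experiment WT. In the clones it read 7.89 and 7.77 in the TNFRSF1A mutant, against 5.91 and 5.71 in the JAK2 mutant, a difference of 2.02 where WT had -1.24. The difference between the 2 contrasts was not tested.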

How the results depend on the processing

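The 71 higher and 69 lower genes became 400 and 558 at a 1.5-fold threshold and 10 and 1 at 3-fold. A log2 level of 8 left 44 lower genes, with fewer genes tested. The mean of all probe sets of a gene gave 40 higher and 27 lower, of which 36 and 23 were among the 71 and 69; there, 20 and 12 were also 2-fold between the clones, beside 40 and 29. A tighter exclusion of cytokine-changed genes left 47 higher genes, by its construction. The unstimulated arrays alone held 105 lower genes by fold. Leaving out 1 WT array at a time gave 0 to 93 higher and 0 to 82 lower genes; both counts were 0 without either array of the TNF-alpha experiment, with 1 residual degree of freedom, and the lone array was assumed to vary like the other pair. Under loess, a further quantile normalization, removal of x_at probe sets, no level filter, no exclusion, the 8-array fit, stimulation as a block and an intensity trend, every count stayed within 1.5 times. The 40 called genes named were also followed singly, though not every alternative held each of them, and none of these values turned its sign. Their calls were lost 40 times without each TNF-alpha experiment array, 9 times with the mean of probe sets, 5 times and 1 time without an IFN-gamma experiment array, 1 time under loess and 1 time without x_at probe sets. Named genes that were not called were not followed. Without x_at probe sets the median of the AHR targets was 1.41, the same as the unchanged difference of CYP1B1. There, heat shock genes had a median of -0.78 and p53 targets of 0.21. With the mean of probe sets the medians were 0.62 for AHR targets and 0.42 for FOXO targets. They were -0.50 for heat shock and -0.24 for nucleotide synthesis genes. Signal near background limits 20 called genes to bounds and leaves MANSC1 with no fold.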

Other observations

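Probe sets without a single gene name were not part of the comparison. Of 2077 of them past the same level filter and exclusion, 15 were at least 2-fold higher and 19 at least 2-fold lower in TNF-experiment WT by fold alone.

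Of 6 histone genes compared, 4 were higher at the adjusted p (limma) and 0 lower, beside 12.5% and 17.1% of all genes, 0 were called, and the median was 0.42, with H1-2 at 0.83 and H2BC21 at 0.77. Metallothionein and zinc genes had 4 of 8 higher and 0 lower at the adjusted p, beside the same shares of all genes. Their median was 0.29, while between the clones MT2A differed by -1.13 and MT1X by -1.14. Interferon-stimulated genes that IFN-gamma had not changed 1.5-fold, 7 in all, had a median of -0.24. At the adjusted p 1 was lower and 0 higher, beside 17.1% and 12.5% of all genes, and 0 were called. Medians were -0.06 over 18 tRNA synthetase genes, -0.06 over 16 lysosomal genes, 0.05 over 7 iron genes, 0.00 over 10 immediate early genes and 0.14 over 10 clock genes, with 0 called in each list.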
